A study of Homo sapiens with 12 samples.

Results

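The 10 genes described here are AXIN2, LEF1, TCF7, SP5 and NKD1, which are target genes or nuclear factors of Wnt signaling, and DKK1, DKK4, SFRP1, SFRP2 and FRZB, which encode secreted Wnt antagonists. They were chosen by name, and each stood on 1 line of a table of 56593 gene symbols. Their expression was followed from pluripotency to blood progenitors in 12 RNA-seq libraries, 3 from each of 4 populations. The starting point was undifferentiated H1, a widely used line of human embryonic stem cells (hESCs). Cultures of H1 in a chemically defined medium received activin A and BMP4 first and VEGF and bFGF from day 2 on. From these cultures APLNR+ mesoderm cells were sorted at day 2, CD31+CD34+ hemogenic endothelial cells (HEPs) at day 5 and CD43+ hematopoietic progenitor cells (HPCs) at day 8. All libraries derive from 1 cell line. The study's methods speak of independent experiments in general, and no label ties a library to a culture, so the p values below measure the spread between these libraries, which may be partly technical.

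Wnt proteins bind Frizzled receptors together with LRP5 or LRP6, and this stops the destruction of beta-catenin in the cytoplasm. Beta-catenin then enters the nucleus and works with DNA-binding proteins of the TCF and LEF family, to which LEF1 and TCF7 belong. AXIN2 and NKD1 are induced by the signal and dampen it inside the cell, and SP5 is a zinc finger transcription factor induced by the same signal. The Dickkopf proteins DKK1 and DKK4 bind LRP5 and LRP6 outside the cell. SFRP1, SFRP2 and FRZB resemble the ligand-binding part of Frizzled and bind Wnt proteins. In vertebrate embryos Wnt signaling is needed to form the primitive streak and mesoderm, and several of its antagonists are themselves target genes.

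TCF and LEF proteins recognize a short core that can be written NNCAAAG, in which each N is A or T. The 250 bases before the annotated start were searched for this core on both strands. RefSeq promoter windows (GRCh38.p14) are described for 6 of the 10 genes, namely SP5, DKK1, TCF7, LEF1, SFRP2 and FRZB. The other genes were not included. The windows of SP5 (chr2:170715087-170715336, plus strand), DKK1 (chr10:52314031-52314280, plus strand) and SFRP2 (chr4:153789084-153789333, minus strand) are shown with that of LEF1 (chr4:108166302-108166551, minus strand). SP5, DKK1 and LEF1 were all raised at the first step below and SFRP2 was lowered, and the windows of LEF1 and SFRP2 held no core. Capitals mark the cores, and the letters read 5′ to 3′ toward the start of the gene:
SP5: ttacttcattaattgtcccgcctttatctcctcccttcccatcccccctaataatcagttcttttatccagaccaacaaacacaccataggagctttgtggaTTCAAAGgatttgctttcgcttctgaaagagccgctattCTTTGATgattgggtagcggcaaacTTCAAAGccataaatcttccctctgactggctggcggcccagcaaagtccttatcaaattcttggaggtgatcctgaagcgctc
DKK1: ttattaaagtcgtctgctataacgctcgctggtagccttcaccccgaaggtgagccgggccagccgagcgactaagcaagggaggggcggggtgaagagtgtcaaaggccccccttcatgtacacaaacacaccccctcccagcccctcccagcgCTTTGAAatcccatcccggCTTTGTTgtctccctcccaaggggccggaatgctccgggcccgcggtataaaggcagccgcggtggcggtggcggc
LEF1: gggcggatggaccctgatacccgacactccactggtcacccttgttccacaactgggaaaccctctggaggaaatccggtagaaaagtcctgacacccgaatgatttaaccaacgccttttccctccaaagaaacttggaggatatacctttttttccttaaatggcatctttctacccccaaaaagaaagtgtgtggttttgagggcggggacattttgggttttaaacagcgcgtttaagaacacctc
SFRP2: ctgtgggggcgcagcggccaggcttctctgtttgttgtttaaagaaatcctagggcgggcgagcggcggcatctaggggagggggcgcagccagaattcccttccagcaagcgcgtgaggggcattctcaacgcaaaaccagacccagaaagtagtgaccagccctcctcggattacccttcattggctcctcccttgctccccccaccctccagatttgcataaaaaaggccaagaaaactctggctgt

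SP5 held 3 cores, whose first bases lay 148, 109 and 84 bases before its start. DKK1 held 2 cores, at 95 and 76 bases, and 1 of the 2 windows of TCF7 held 1 core at 50 bases. The windows of LEF1, SFRP2 and FRZB held none. Of 35116 RefSeq promoters of this length, 12% held at least 1 core, 1.21% at least 2 and 0.122% at least 3. A match is a run of letters and not a measured binding site.

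Expression was given as FPKM, in which fragments are divided by transcript length and by the library's total, so levels can be compared between genes. Changes were fitted with limma on log2(FPKM + 1) over the 14840 genes that reached 1 FPKM in at least 3 libraries, and every adjusted p below is from that model. A gene was called raised or lowered where its adjusted p was under 0.05 and it moved by 2-fold or more on this scale, which understates the change of genes near 1 FPKM. The depth of each library is unknown in absolute terms. The spacing of low values put it between 0.552 and 1.28 times that of CD43+ replicate 3, with replicate 1 the shallowest in 4 of 4 populations. Summed FPKM was uneven, from 568036 to 1576040 over the libraries. The upper quartile of the genes tested lay between 0.906 and 1.07 times its geometric mean over the libraries. The populations carried their markers: 9 of 9 pluripotency markers averaged at least 1 FPKM in H1, 9 of 9 mesoderm markers in APLNR+ cells, 9 of 10 endothelial markers in CD31+CD34+ cells and 9 of 10 hematopoietic markers in CD43+ cells. By the same limit markers of other stages were present too: 8 of 9 pluripotency markers in APLNR+ and in CD31+CD34+ cells, 8 of 9 mesoderm markers in CD31+CD34+ cells and 10 of 10 endothelial markers in CD43+ cells. The marker missing from CD43+ cells was PTPRC (CD45), at no more than 0.521 FPKM in any library. None of 5 neural markers exceeded 0.336 FPKM in any library. Endoderm markers were present, and 5 of 9 averaged at least 1 FPKM in CD31+CD34+ cells. The summed FPKM of these 9 was 8.48 to 9.69 in H1 and 21.3 to 23.2 at day 2. It was 48.5 to 53.2 at day 5 and 27.8 to 36.7 at day 8. Other marker lists moved with the stages. The summed level of 9 pluripotency markers was 2651 to 2761 FPKM in H1, 913 to 1006 at day 2, 374 to 461 at day 5 and 178 to 208 at day 8, and that of 10 mesenchymal and smooth muscle markers was 77.1 to 108, 451 to 590, 373 to 450 and 120 to 147 FPKM. The part of residual or admixed cells in the values below was not tested, and in bulk libraries fewer cells of a type and less RNA per cell cannot be told apart.

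**Figure D1:**
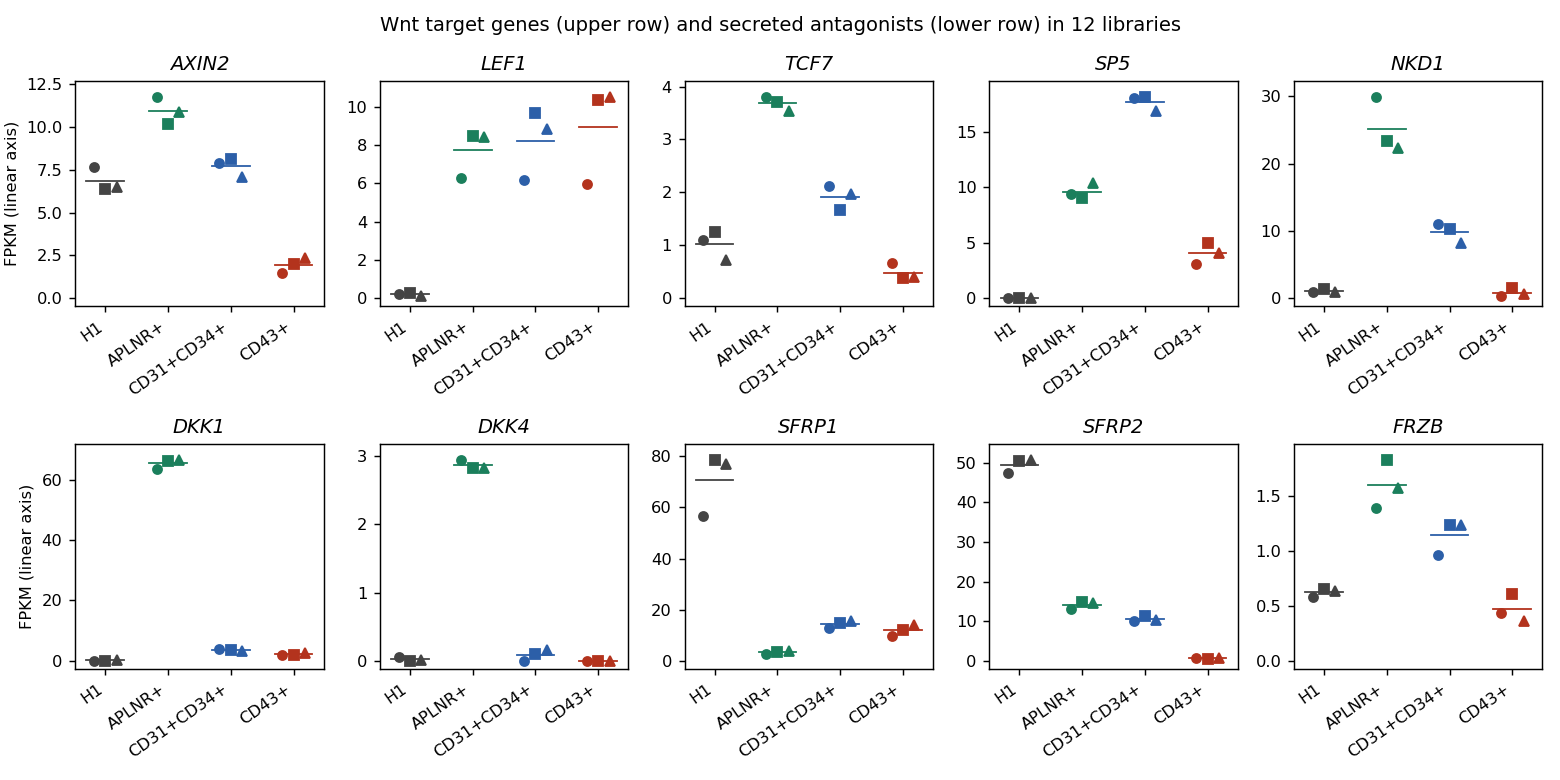
FPKM of the 10 genes in each of the 12 libraries on linear axes with separate scales (circle, replicate 1; square, replicate 2; triangle, replicate 3; line, mean of 3 libraries). AXIN2, TCF7, NKD1, DKK1, DKK4 and FRZB were highest in APLNR+ cells, SP5 in CD31+CD34+ cells, LEF1 in CD43+ cells, and SFRP1 and SFRP2 in H1.

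At the step from H1 to APLNR+ mesoderm, 6 of the 10 genes were raised (LEF1, TCF7, SP5, NKD1, DKK1 and DKK4) and 2 were lowered (SFRP1 and SFRP2), whereas 8.3% of all genes tested were raised and 7.62% lowered. AXIN2 and FRZB were higher by less than 2-fold on the fitted scale. The libraries of H1 and APLNR+ did not overlap for 10 of 10 genes, against 66% of all genes tested. LEF1, SP5 and DKK1 reached 1 FPKM in every library but those of H1, and DKK4 only in those of APLNR+ cells, so these 4 genes entered the test through populations in which they were high and the counts describe the genes only. The median change was 1.57 over the 10 genes and -0.12 over all genes tested (log2).

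From APLNR+ to CD31+CD34+ cells 3 genes were lowered (NKD1, DKK1 and DKK4; 17.1% of all genes tested) and SFRP1 alone was raised (12.5% of all genes tested). The libraries did not overlap for 9 of 10 genes, against 75.7% of all genes, and LEF1 was the gene that overlapped. From CD31+CD34+ to CD43+ cells 4 genes were lowered (AXIN2, SP5, NKD1 and SFRP2; 8.79% of all genes tested) and 0 were raised (5.58%). The libraries did not overlap for 7 of 10 genes, against 58% of all genes, and LEF1, DKK4 and SFRP1 overlapped. The median change of the 10 genes was -0.42 and -0.77 at these steps, and that of all genes tested -0.01 and 0.00. In the limma fit, 0 of the 10 genes also had a positive change at an unadjusted p under 0.05 at the last step.

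**Figure D2:**
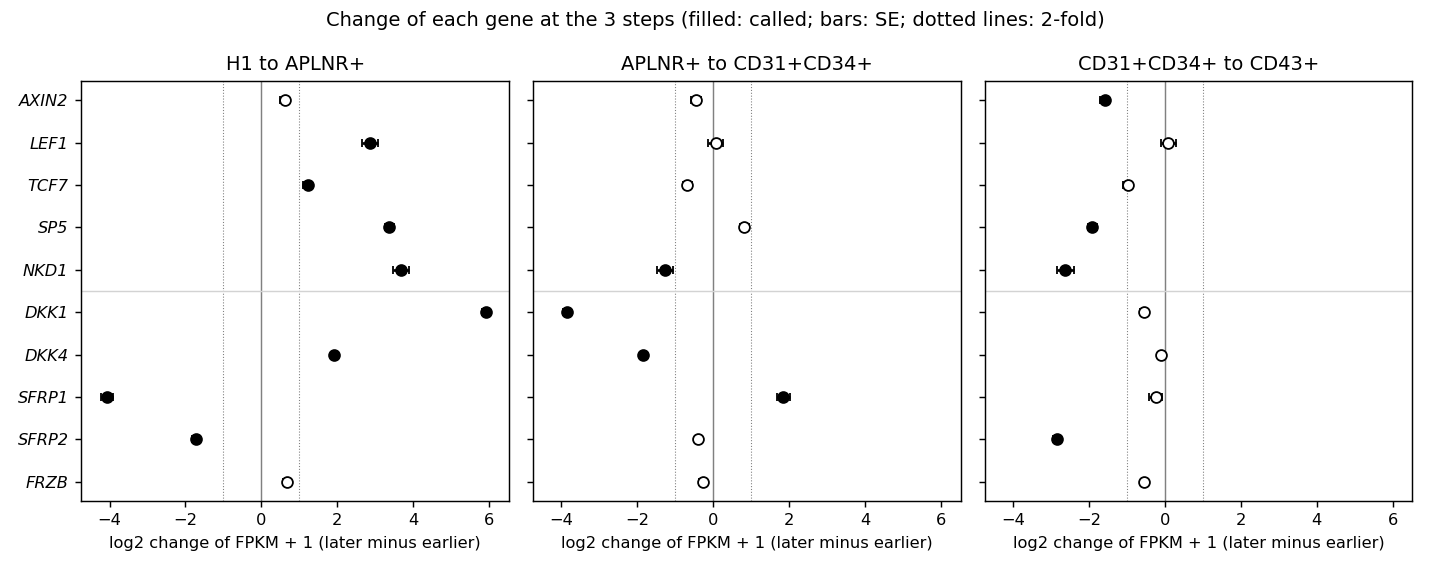
Log2 change of FPKM + 1 of each gene (later minus earlier population) at the 3 consecutive steps, with the SE from limma; filled points passed an adjusted p of 0.05 and 2-fold (dotted lines). Filled points lie to the right for 6 genes at the first step and to the left for 3 and 4 genes at the later steps.

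AXIN2, the scaffold protein that returns beta-catenin to destruction, had 7.65, 6.35 and 6.48 FPKM in the H1 libraries and 11.7, 10.2 and 10.9 FPKM in APLNR+ cells. It had 7.91, 8.15 and 7.10 FPKM in CD31+CD34+ cells and 1.47, 1.98 and 2.33 FPKM in CD43+ cells. H1 and CD31+CD34+ cells overlapped (difference 0.16 ± 0.12, SE; adjusted p 0.25), while the APLNR+ libraries stood above and the CD43+ libraries below all others. APLNR+ cells exceeded H1 by 0.61 ± 0.12 (log2 ± SE, adjusted p 0.000987), 1.6-fold in mean FPKM and under the limit. The fall to CD43+ cells was the only called step of AXIN2, with a log2 change of -1.58 ± 0.12 (adjusted p 4.19e-07), 4.01-fold in mean FPKM. Of the 50-base stretches of AXIN2 transcripts, 24.1% are shared with AC004805.1, an annotated gene that overlaps AXIN2 on the same strand, and that gene was listed at no more than 0.394 FPKM.

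NKD1, an intracellular protein that binds Dishevelled, had 0.887, 1.38 and 0.879 FPKM in H1 libraries, against 29.9, 23.4 and 22.3 FPKM in APLNR+ cells. It then had 11.1, 10.3 and 8.14 FPKM in CD31+CD34+ and 0.297, 1.53 and 0.630 FPKM in CD43+ cells. Its level thus rose and fell within the sequence, and the CD43+ libraries overlapped those of H1 (difference -0.22 ± 0.22, adjusted p 0.377). Leaving out 1 library moved this difference between -0.49 and -0.0042, and it was -0.54 in replicate 1 and -0.059 in replicates 2 and 3. The log2 changes were 3.68 ± 0.22 (adjusted p 3.37e-08), -1.27 ± 0.22 (0.000207) and -2.62 ± 0.22 (8.79e-07) at the 3 steps. NKD1 was the only one of the 10 genes called at every step.

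SP5, the zinc finger factor whose promoter held 3 cores, was near 0 in H1, with 0.0455, 0.00556 and 0.0211 FPKM. It had 9.41, 9.01 and 10.4 FPKM in APLNR+ cells, 18.1, 18.1 and 16.9 FPKM in CD31+CD34+ cells and 3.08, 5.01 and 4.05 FPKM in CD43+ cells. No neighbouring populations overlapped, and SP5 was the only one of the 10 genes highest in CD31+CD34+ cells, where 24.6% of all genes tested had their highest mean. The rise from H1 was 3.37 ± 0.13 (adjusted p 5.44e-10). The further change to CD31+CD34+ cells was 0.82 ± 0.13 (8.65e-05), 1.85-fold in mean FPKM and under the 2-fold limit on the fitted scale. The fall to CD43+ cells was -1.91 ± 0.13 (1.19e-07), and the level there remained above that of H1 by 2.28 ± 0.13 (7.13e-09). SP5 shares 1.10% of its 50-base stretches with its relative SP9.

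LEF1 rose at the first step, and it was the only one of the 10 genes whose libraries overlapped among all 3 differentiated populations. It had 0.230, 0.243 and 0.111 FPKM in H1 libraries, against 6.28, 8.50 and 8.42 FPKM in APLNR+ cells. It had 6.18, 9.66 and 8.82 FPKM in CD31+CD34+ and 5.97, 10.4 and 10.5 FPKM in CD43+ cells. Replicate 1 was the lowest library in each differentiated population. The rise from H1 was 2.86 ± 0.20 (log2 ± SE, adjusted p 1.85e-07). The later changes were 0.07 ± 0.20 (0.774) and 0.09 ± 0.20 (0.726).

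The order of LEF1 among the differentiated populations depended on the libraries. In replicate 1 alone the CD43+ value differed from the APLNR+ value by -0.06, and in replicates 2 and 3 by 0.27 (log2). Leaving out APLNR+ replicate 1 turned the change to CD31+CD34+ cells to -0.06, and leaving out CD31+CD34+ replicate 2 turned it to -0.05. The change to CD43+ cells turned to -0.08 without CD31+CD34+ replicate 1, -0.02 without CD43+ replicate 2 and -0.03 without CD43+ replicate 3. Replicate 1, the shallowest library, was the lowest in at least 3 populations for 40.1% of all genes tested and for 4 of the 10 genes, and its part in these values was not tested. LEF1-AS1, a gene on the opposite strand whose exons overlap those of LEF1, averaged 0, 0.422, 0.937 and 2.38 FPKM from H1 to CD43+ cells. No source states that strand was used in the quantification, so reads of the pair cannot be told apart where they overlap.

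TCF7, the relative of LEF1 also known as TCF-1, rose at the first step and was lower in each later population. Its levels were 1.09, 1.26 and 0.727 FPKM in H1 libraries, against 3.80, 3.71 and 3.54 FPKM in APLNR+ cells. They were 2.11, 1.67 and 1.96 FPKM in CD31+CD34+ and 0.662, 0.388 and 0.400 FPKM in CD43+ cells. No neighbouring populations in this order overlapped. The rise was 1.22 ± 0.12 (adjusted p 2.71e-06), and the later changes were -0.69 ± 0.12 (0.000199) and -0.98 ± 0.12 (2.16e-05). The last change lay just under the 2-fold limit although mean FPKM differed 3.96-fold. It passed the limit with a pseudocount of 0.1 (-1.81), in replicates 2 and 3 alone (-1.01), without CD31+CD34+ replicate 2 (-1.04) and without CD43+ replicate 1 (-1.06). Exons of TCF7 overlap those of SKP1 on the opposite strand, which averaged 185, 160, 62.4 and 56.4 FPKM from H1 to CD43+ cells, and the part of SKP1 reads in the TCF7 values was not tested.

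The FPKM ratio of LEF1 to TCF7 within a library, which no scaling of the library can change, was higher in each later population. It was 0.211, 0.193 and 0.152 in H1 and 1.65, 2.29 and 2.38 in APLNR+ cells. The listed FPKM was thus higher for TCF7 in H1 and for LEF1 in APLNR+ cells. The ratio was 2.92, 5.78 and 4.50 in CD31+CD34+ and 9.02, 26.7 and 26.3 in CD43+ cells. The populations did not overlap at any step. Each step gave an exact two-sided permutation p of 0.1, the smallest that 3 against 3 libraries allow, and 0.109 after adjustment over 12 tests of 4 ratios. On the log2 scale with 1 FPKM added to both genes the steps were 1.64, 0.75 and 1.07. LEF1 in H1 (0.111 to 0.243 FPKM) and TCF7 in CD43+ cells (0.388 to 0.662 FPKM) lay under 1 FPKM, where values are least precise. Reads of LEF1-AS1 and SKP1, which overlap LEF1 and TCF7 on the opposite strand, may enter the ratio, and their part was not tested. TCF7L1, the member of this family best known as a repressor of target genes in pluripotent cells, had 3.52 ± 0.136 FPKM in H1 and fell to 0.940 ± 0.0525 FPKM by the APLNR+ stage (SD, n = 3; log2 change -1.22 ± 0.11, limma adjusted p 2.3e-06).

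**Figure D3:**
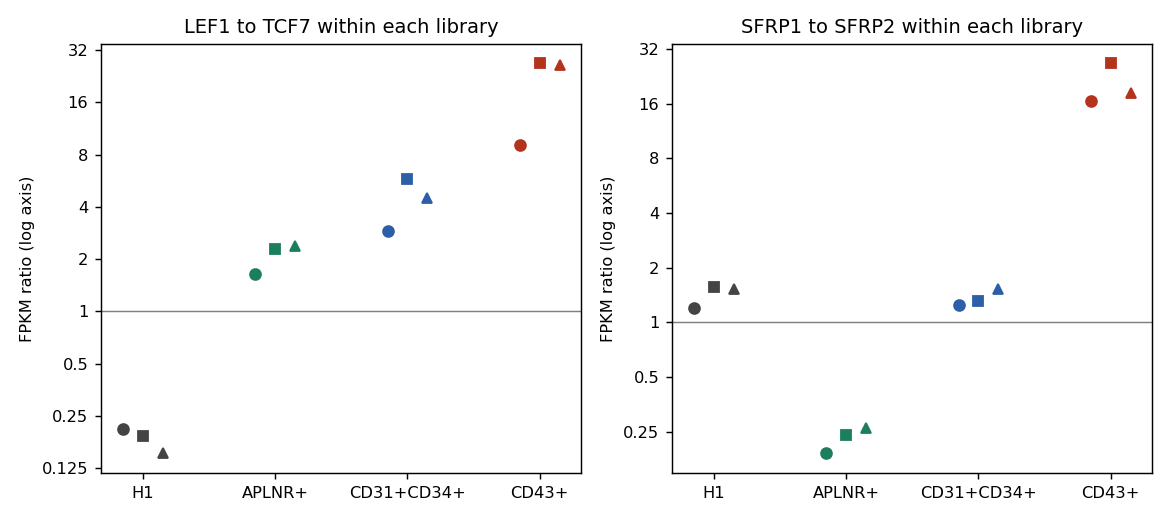
FPKM ratio of LEF1 to TCF7 (left) and of SFRP1 to SFRP2 (right) within each library on a log axis, with a line at 1 (circle, replicate 1; square, replicate 2; triangle, replicate 3). The LEF1 to TCF7 ratio runs from 0.152 in H1 to 26.7 in CD43+ cells without overlap between populations, and the SFRP1 to SFRP2 ratio is under 1 only in APLNR+ cells.

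Among the antagonists, DKK1 showed the largest change of the 10 genes at any of the 3 steps. It was at 0.0952, 0.0684 and 0.167 FPKM in H1 and at 63.5, 66.1 and 66.5 FPKM in APLNR+ cells. It then had 3.94, 3.50 and 3.41 FPKM in CD31+CD34+ and 1.80, 2.06 and 2.58 FPKM in CD43+ cells. No populations overlapped, and the APLNR+ mean was 18.1 times the next highest. The log2 change was 5.90 ± 0.10 (adjusted p 1.8e-12) to APLNR+ and -3.85 ± 0.10 (3.71e-11) to CD31+CD34+ cells. The last change was -0.56 ± 0.10 (0.000671), under the 2-fold limit, and CD43+ cells remained above H1 by 1.50 ± 0.10 (5.4e-08). The exons of DKK1 overlap those of PRKG1-AS1 on the opposite strand, which was listed at no more than 0.470 FPKM.

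DKK4, the second Dickkopf gene of the group, was detected at low level and almost only in APLNR+ cells. Its values were 0.0490, 0 and 0.0148 FPKM in H1 libraries, against 2.94, 2.83 and 2.82 FPKM in APLNR+ cells. They were 0, 0.0956 and 0.155 FPKM in CD31+CD34+ cells, and 0 was listed in all 3 CD43+ libraries. A value of exactly 0 can be a failed estimate in this kind of file, so no fold is given against CD43+ cells. The log2 change was 1.92 ± 0.07 (adjusted p 7.24e-10) to APLNR+ and -1.84 ± 0.07 (1.09e-09) to CD31+CD34+ cells, for a gene that passed the filter only through the APLNR+ libraries. In these libraries DKK1 exceeded DKK4 by 21.6, 23.4 and 23.6 times in FPKM. Where DKK4 was listed above 0 in CD31+CD34+ cells, the ratio was 36.6 and 22.1.

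SFRP1 followed the opposite course at the first step. It had 56.7, 78.6 and 77.1 FPKM in H1 libraries, against 2.50, 3.53 and 3.81 FPKM in APLNR+ cells. It then had 12.7, 14.8 and 15.5 FPKM in CD31+CD34+ and 9.88, 12 and 14.2 FPKM in CD43+ cells. APLNR+ cells were the lowest population, and CD31+CD34+ and CD43+ cells overlapped (difference -0.25 ± 0.17, adjusted p 0.235). The fall was -4.07 ± 0.17 (1.22e-09), 21.6-fold in mean FPKM, and the return was 1.85 ± 0.17 (9.17e-07), 4.37-fold. CD31+CD34+ cells remained 4.93-fold and CD43+ cells 5.89-fold below H1 in mean FPKM. SFRP1 was the only one of the 10 genes with its lowest mean in APLNR+ cells, where 24.0% of all genes tested had theirs. Replicate 1 was the lowest library of SFRP1 in all 4 populations, as it was for 18.7% of all genes tested.

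SFRP2 was lower in each later population. Its values were 47.3, 50.4 and 50.7 FPKM in H1 libraries, against 13.2, 14.8 and 14.6 FPKM in APLNR+ cells. They were 10.1, 11.3 and 10.2 FPKM in CD31+CD34+ and 0.597, 0.452 and 0.779 FPKM in CD43+ cells. No populations overlapped. The log2 changes were -1.74 ± 0.10 (adjusted p 1.77e-08), -0.39 ± 0.10 (0.00268) and -2.85 ± 0.10 (4.91e-10), of which the middle one was under the 2-fold limit. Over the whole sequence mean FPKM was 81.2-fold lower. The summed pluripotency markers given above were also lower in each later population, and their part in the SFRP2 values was not tested.

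FRZB, also known as SFRP3, stayed low throughout and never passed the 2-fold limit on the fitted scale. It had 0.577, 0.655 and 0.633 FPKM in H1 libraries, against 1.39, 1.83 and 1.57 FPKM in APLNR+ cells. It had 0.959, 1.23 and 1.23 FPKM in CD31+CD34+ and 0.435, 0.604 and 0.366 FPKM in CD43+ cells. APLNR+ cells were the highest population, and H1 and CD43+ cells overlapped. The changes were 0.68 ± 0.10 (adjusted p 8.4e-05), -0.28 ± 0.10 (0.0208) and -0.54 ± 0.10 (0.000498). With a pseudocount of 0.1 the first and the last passed the limit, at 1.23 and -1.14.

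The most abundant of the 5 antagonist transcripts differed between populations, given here as shares of the summed FPKM of the 5 genes. In H1 SFRP1 held 58.2% ± 3.54 and SFRP2 41.1% ± 3.49 (SD, n = 3). In APLNR+ cells DKK1 held 74.9% ± 0.981, SFRP2 16.2% ± 0.417 and SFRP1 3.74% ± 0.665. In CD31+CD34+ cells SFRP1 and SFRP2 again held most, 48.2% ± 2.53 and 35.5% ± 1.74, with DKK1 at 12.2% ± 1.72. In CD43+ cells SFRP1 alone held 78.8% ± 0.929. Of the 4 populations, APLNR+ mesoderm was the only one in which a Dickkopf gene held the largest share.

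The summed level of the 5 antagonists was 121 ± 14.1, 87.3 ± 3.28, 29.7 ± 1.74 and 15.3 ± 2.60 FPKM from H1 to CD43+ cells (mean ± SD, n = 3). That of AXIN2, LEF1, TCF7, SP5 and NKD1 was 9.12 ± 0.845, 57.2 ± 3.46, 45.4 ± 2.48 and 16.2 ± 4.17 FPKM. The sum of these 5 antagonists was thus lower in each later population, and the target sum was highest in APLNR+ cells. These sums are on the FPKM scale and lean on the most abundant genes. The sum of 20 other genes listed as antagonists took another course. It was 48.9 to 52.6 FPKM in H1 and 2261 to 2389 at day 2. It was 283 to 324 at day 5 and 88.6 to 99.1 at day 8. CER1 was the main part at day 2, and whether it acts on Wnt proteins in these cells was not tested.

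**Figure D4:**
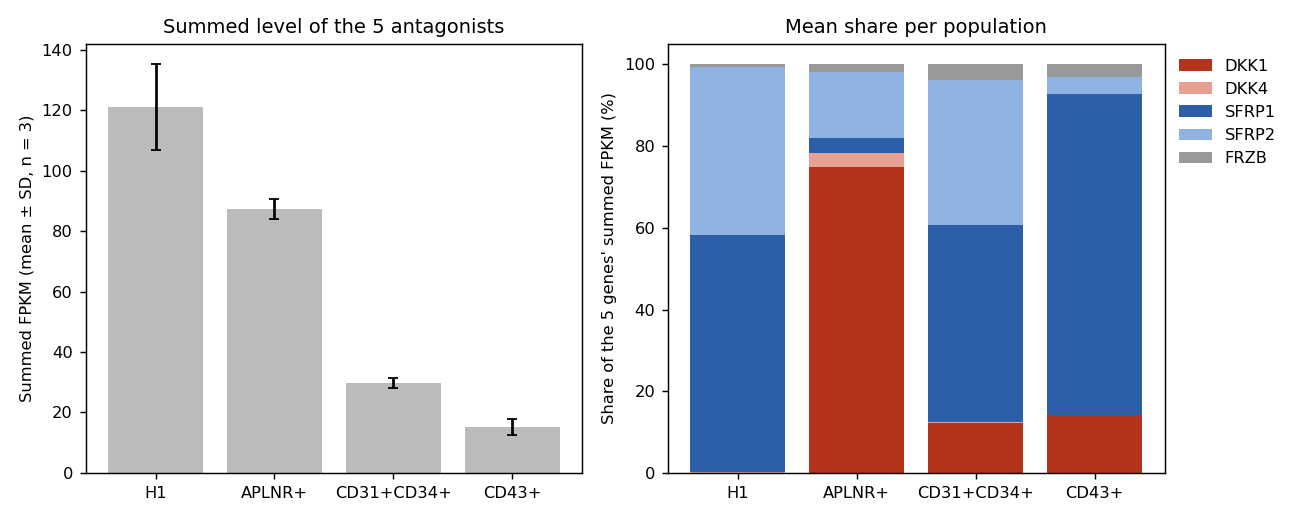
Summed FPKM of DKK1, DKK4, SFRP1, SFRP2 and FRZB per population (left, bars from 0, mean and SD of 3 libraries) and the mean share of each gene in that sum in percent (right). DKK1 fills 74.9% in APLNR+ cells, and SFRP1 and SFRP2 together fill most of the other populations.

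The FPKM ratio of SFRP1 to SFRP2 was 1.20, 1.56 and 1.52 in H1 and 0.190, 0.239 and 0.262 in APLNR+ cells. It returned to 1.25, 1.32 and 1.52 in CD31+CD34+ cells, which overlapped H1, and reached 16.5, 26.6 and 18.2 in CD43+ cells. On the log2 scale with 1 FPKM added the changes were -2.33, 2.24 and 2.60, each with an exact permutation p of 0.1 (adjusted 0.109). The ratio of SFRP2 to FRZB was 76.9 to 82.0 in H1 and 8.10 to 9.48 in APLNR+ cells. It was 8.33 to 10.6 in CD31+CD34+ and 0.748 to 2.13 in CD43+ cells, and the middle step gave an exact permutation p of 0.2.

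Over the whole sequence, CD43+ cells were compared with H1. LEF1, SP5 and DKK1 were higher in CD43+ cells (14.6% of all genes tested were called so), with log2 differences of 3.02 ± 0.20, 2.28 ± 0.13 and 1.50 ± 0.10. AXIN2, SFRP1 and SFRP2 were lower (22.5% of all genes), with -1.43 ± 0.12, -2.46 ± 0.17 and -4.98 ± 0.10. The adjusted p values of these 6 genes lay between 1.22e-12 and 3.62e-07. TCF7 differed by -0.45 ± 0.12 (limma adjusted p 0.00413) under the 2-fold limit, and the libraries of NKD1, DKK4 and FRZB overlapped. Among the target genes, SP5 and LEF1 thus ended above H1, AXIN2 below it, and NKD1 was not separated from it.

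The 4 populations were all separated without overlap between neighbours for TCF7, SP5, DKK1 and SFRP2. The share of all genes tested that were so separated was not counted, so this describes these genes only. APLNR+ cells held the highest mean of 6 of the 10 genes, where 18.2% of all genes tested had theirs. DKK4 is among these 6 and passed the filter only through the APLNR+ libraries, so this count describes these genes only. CD43+ cells held the lowest mean of 6 of the 10 genes, where 25.2% of all genes had theirs.

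The other genes of the pathway were counted in lists written from general knowledge, and their counts describe the lists only. Of all genes tested, 8.3% were raised and 7.62% lowered at the first step, and 12.5% and 17.1% at the second. At the third step 5.58% were raised and 8.79% lowered. Of 21 genes for Wnt ligands and their secretion, 8 were expressed enough to be tested, and at the first step 6 of these were raised and 0 lowered (limma, with 7 positive and 0 negative changes at an unadjusted p under 0.05). The median change of these 8 genes was 2.63, -0.66 and -0.77 (log2) at the 3 steps. WLS, which carries Wnt proteins to the cell surface, was at 0.530 ± 0.110 FPKM before and 92.2 ± 2.10 FPKM after this step (log2 change 5.93 ± 0.14, limma adjusted p 1.32e-11), and it fell to 10.7 ± 1.94 FPKM in CD43+ cells. WNT5A went from 0.524 ± 0.146 to 51.1 ± 5.72 FPKM and back to 2.88 ± 0.400 FPKM in CD31+CD34+ cells. WNT3, a ligand that acts through beta-catenin, reached 3.87 ± 0.240 FPKM in APLNR+ cells. WNT3A did not exceed 0.0787 FPKM in any library. The ligands changed again later: WNT11 rose from 0.517 ± 0.108 to 21.6 ± 0.815 FPKM in CD31+CD34+ cells, and WNT5B from 12.1 ± 0.896 to 52.4 ± 5.48 FPKM in CD43+ cells. From APLNR+ to CD31+CD34+ cells 1 gene of this list was raised and 3 lowered, and at the last step 1 was raised and 3 lowered (WNT3, PORCN and WLS, of which WNT3 alone is a ligand). Of the 8 genes tested, 7 reached 1 FPKM in no H1 library, and WNT4 and WNT8A did so in APLNR+ cells alone, so they entered the test through later populations and the filter favoured a rise from H1. The same holds for 8 of the 15 other target genes and 6 of the 17 other antagonists below, which reached 1 FPKM in no H1 library. It also holds for 2 of the 15 receptor genes and 2 of the 4 genes of the R-spondin axis, LGR5 among them. Of the 11 nuclear partners, PYGO1 passed the filter only through the APLNR+ libraries, which favoured its rise and its later fall.

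Of 15 receptor genes tested, 4 were raised and 1 lowered at the first step, 1 raised and 6 lowered at the second, and 0 raised and 4 lowered at the third, where 1 positive change had an unadjusted p under 0.05 (limma). The median change was 0.33, -0.85 and -0.56 (log2). ROR2, a receptor of Wnt5a-type ligands, was at 1.00 ± 0.191, 37.0 ± 1.41, 4.58 ± 0.211 and 1.40 ± 0.195 FPKM from H1 to CD43+ cells. FZD8 and FZD4 rose at the first step by 3.07 ± 0.09 and 2.05 ± 0.09 (log2), and FZD7 fell at the second by 2.62 ± 0.08. Of 4 genes of the R-spondin axis tested, 2 were raised at the first step, 1 was raised and 2 lowered at the second, and 2 were lowered at the third. LGR5, a receptor gene that is itself a known target, went from 0.0281 ± 0.00675 to 17.9 ± 2.81 FPKM in APLNR+ cells and to 1.33 ± 0.392 FPKM in CD31+CD34+ cells. LGR4 rose and fell with it, by 1.60 ± 0.15 and -2.22 ± 0.15.

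The next list holds genes for proteins that handle beta-catenin in the cytoplasm. Of 15 such genes tested, 0 were called at the first step (limma, with 5 positive and 2 negative changes at an unadjusted p under 0.05), APC alone at the second (-1.26 ± 0.14, limma adjusted p 4.53e-06) and DVL3 alone at the third (-1.09 ± 0.12, 8.11e-06). At an unadjusted p under 0.05 there were 7 positive and 3 negative changes at the second step and 1 positive and 9 negative at the third. The median change of this list was 0.26, 0.29 and -0.34 (log2). Of 11 nuclear partners of beta-catenin, TLE3 and PYGO1 were raised at the first step and TCF7L1 lowered. PYGO1 and TLE1 were lowered at the second step, and TLE2, BCL9L and BCL9 at the third.

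Of 15 other target genes tested, 8 were raised at the first step and 0 lowered, with MIXL1 at 71.3 ± 20.1 and JUN at 36.0 ± 2.16 FPKM in APLNR+ cells. At the second step 4 were raised and 3 lowered, and at the third 0 were raised and 5 lowered. At an unadjusted p under 0.05 (limma), 2 had a negative change at the first step and 4 a positive change at the third. The median change was 1.03, 0.15 and -0.83 (log2). CCND1, which encodes cyclin D1, was at 30.8 ± 7.31 and 33.1 ± 6.19 FPKM in H1 and APLNR+ cells, rose to 152 ± 13.8 in CD31+CD34+ and fell to 18.4 ± 1.45 FPKM in CD43+ cells. CD44 was highest in CD43+ cells, at 58.6 ± 6.63 FPKM. EVX1 fell at the last step by 2.07 ± 0.10 (log2), as SP5 did by 1.91.

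Of 17 other antagonist genes tested, 6 were raised and 1 lowered at the first step, 4 raised and 3 lowered at the second, and 1 raised and 10 lowered at the third. The median change was -0.01, -0.09 and -1.05 (log2). CER1, which encodes Cerberus, an antagonist of Nodal and BMP proteins, was placed in this list from general knowledge. Whether it acts on Wnt proteins in these cells was not tested. CER1 had 1.74 ± 0.270, 2238 ± 67.4, 1.83 ± 0.497 and 0.421 ± 0.581 FPKM from H1 to CD43+ cells. It peaked where DKK1 did, but CD31+CD34+ cells overlapped H1 (0.04 ± 0.22, limma adjusted p 0.888) and CD43+ cells lay below it (-1.02 ± 0.22, 0.00107), whereas DKK1 stayed above H1 in both. SOST, the gene of sclerostin, which binds LRP5 and LRP6 as DKK1 does, was high in the next population, with 0.0558 ± 0.0223, 46.7 ± 3.68 and 0.708 ± 0.150 FPKM from APLNR+ to CD43+ cells. IGFBP4, which encodes a binding protein of insulin-like growth factors that also inhibits Wnt signaling, was also highest in CD31+CD34+ cells, at 219 ± 20.5 FPKM. SFRP5, the close relative of SFRP1, was highest in CD43+ cells, at 39.5 ± 3.43 FPKM after 0.0419 ± 0.0221 in APLNR+ and 3.24 ± 0.392 in CD31+CD34+ cells. NOTUM, an enzyme that removes the lipid of Wnt proteins, and DKK3 rose at the first step by 2.48 ± 0.14 and 2.20 ± 0.11 (log2).

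**Figure D5:**
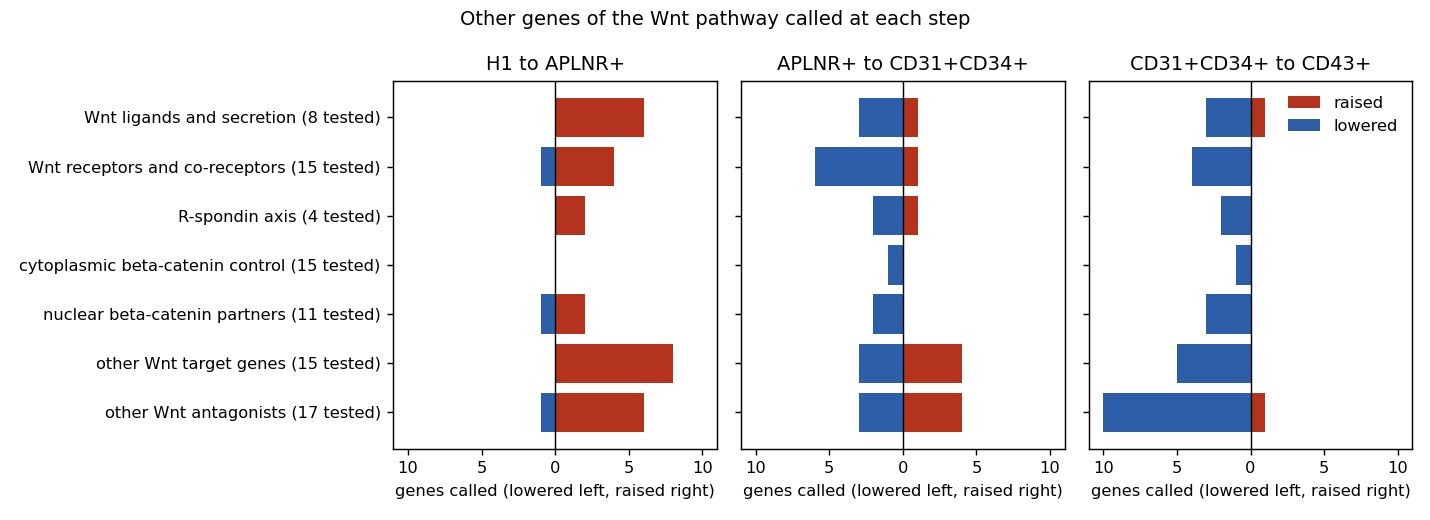
Number of other Wnt pathway genes called raised (right of 0) or lowered (left of 0) at each step, by list, with the number tested. At the first step 8 other target genes and 6 ligand or secretion genes were raised, and at the last step 10 other antagonists were lowered.

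The genes most like each of the 10 were sought among 7718 genes that reached a mean of 10 FPKM in some population, by Pearson r of log2(FPKM + 1) over the 12 libraries. The libraries fall into 4 populations and share their depth, so r is a description of the course and has no p. The nearest were SDC4 for AXIN2 (r 0.986), FADS1 for LEF1 (0.991), MPZL1 for TCF7 (0.982), PCDH7 for SP5 (0.996) and IRX3 for NKD1 (0.987). For the antagonists they were LGALS12 for DKK1 (0.995), CNKSR3 for DKK4 (0.996), MEST for SFRP1 (0.973), TGIF1 for SFRP2 (0.994) and HECW2 for FRZB (0.986). Within the group of 10, NKD1 and FRZB were the closest pair (r 0.956), followed by DKK1 and DKK4 (0.943) and by TCF7 and NKD1 (0.940). SFRP1 stood farthest from the rest, with 0.453 to SFRP2 as its highest value.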

How the data were processed

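RNA-seq libraries of H1 (n = 3), APLNR+ (n = 3), CD31+CD34+ (n = 3) and CD43+ cells (n = 3) were grouped by their titles. Trizol extracts and an Illumina TruSeq kit, which does not mark strand, were used for the libraries, and which of them BGI or Novogene sequenced is not given. The authors deposited FPKM values of all libraries in 1 table. The submitters' processing notes name BWA, Bowtie, RSEM and hg19, without versions or roles. Scaling between libraries is not given in the sources used here. Of 58366 lines, 1 held text and was left out. FPKM is no count, so no count model was run, and precision is limited by 3 libraries per population.

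Genes with at least 1 FPKM in at least 3 libraries (14840) were tested on log2(FPKM + 1) with limma 3.58.1 in R 4.3.3 (4 groups in 1 model, eBayes with trend, two-sided, Benjamini-Hochberg over all genes tested). Calls needed an adjusted p under 0.05 and 2-fold. The script was tested on simulated data. The 10 genes and the lists were chosen with earlier results of these data known. Named beside the 10 genes were up to 3 called genes per pathway list and step with the largest change, for each of the 10 the gene most like it, and genes sharing exons or sequence with them (GENCODE release 29). WNT3A was named after its values were seen. Of the genes this rule gives, 1 is not reported here. Ratios were tested by exact two-sided permutation, adjusted over 12 tests. Alternatives were a pseudocount of 0.1, other filters, 3 scalings, a replicate block, no minimum change, eBayes without trend, the compared populations fitted alone, replicates 2 and 3 alone and leaving out each library. Scripts ran in Python 3.11.15 (pandas 2.3.3, numpy 2.4.6, matplotlib 3.10.9 and scipy 1.17.1).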

Additional observations from a re-analysis of the deposited data

How the results depend on the processing

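The 60 fitted changes of the 10 genes were recomputed 1362 times under the alternatives: 1332 values kept direction and side of the threshold, 21 passed it newly, 3 no longer passed it and 6 reversed. The 3 that no longer passed were SP5 in CD43+ against APLNR+ cells (-1.09 as fitted): quantile normalization (-0.96), replicates 2 and 3 alone (-0.95) and without CD43+ replicate 1 (-0.94). Reversed were LEF1 from APLNR+ to CD31+CD34+ cells without APLNR+ replicate 1 or CD31+CD34+ replicate 2 (-0.057 to 0.24 over the libraries left out), LEF1 to CD43+ cells without CD31+CD34+ replicate 1, CD43+ replicate 2 or CD43+ replicate 3 (-0.078 to 0.33), and FRZB in CD43+ against H1 under quantile normalization (0.014). The causes were not tested. With no minimum change, the 10 genes gave 2 raised and 7 lowered at the second step and 7 lowered at the third. A mean of at least 5 FPKM left out TCF7, DKK4 and FRZB and kept 7.

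For all genes, raised and lowered, no minimum change gave 3376 and 5218 (H1 to APLNR+), 5329 and 5619 (APLNR+ to CD31+CD34+), 3840 and 4121 (CD31+CD34+ to CD43+) and 4922 and 6154 (CD43+ against H1). The mean filter, with 8622 genes tested, gave 672 and 521, 1663 lowered, 457 and 856, and 1370 and 1939 in the same order. A pseudocount of 0.1 gave 1850 lowered at the first step and 1427 raised and 2178 lowered at the third. As fitted, the counts were 1232 and 1131, 1861 and 2539, 828 and 1305, and 2163 and 3338. Median-of-ratios scaling and quantile normalization moved the median change of all genes in CD43+ against H1 by 0.12.

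With a pseudocount of 0.1 the log2 ratio of LEF1 to TCF7 changed by 2.97 at the first and 1.91 at the third step. That of SFRP1 to SFRP2 changed by -2.60, 2.53 and 3.67, that of SFRP2 to FRZB by -3.02, 0.030 and -2.79, and that of DKK1 to DKK4 by 3.68, -0.025 and 0.033. The middle SFRP2 to FRZB change (-0.12 as fitted) and the last DKK1 to DKK4 change (-0.45) thus turned, and the middle DKK1 to DKK4 change (-2.01) nearly vanished. The causes were not tested. The 53 changes of named pathway genes kept direction in 1204 recomputations, and DVL3 lost its call under quantile normalization (-0.98).

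The replicate block changed no call among the 10 genes: 6 were raised and 2 lowered at the first step, 1 and 3 at the second and 0 and 4 at the third. Deviations of 18 same-numbered pairs of libraries correlated between -0.02 and 0.43, with 12 of 18 over 0.1, and 6 of 12 libraries correlated best with their own number, so the numbers do not pair all samples. Replicate 1 stood apart: its 6 pairs correlated between 0.20 and 0.43. All 24 correlations of a replicate 1 library with another number were negative (-0.40 to -0.061). Deviations within a population cancel out, so these negative values partly follow from the positive pairs. Replicate 1 was also the shallowest library of each population. In replicates 2 and 3 alone the counts among the 10 genes were 6 raised and 2 lowered, 1 and 3, and 0 and 5 at the 3 steps. FPKM carries no read totals, and values under 1 FPKM are the least precise.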
